A study of Arabidopsis thaliana with 72 samples.

Results

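The 100 genes described here were picked from 18603 genes measured in leaves of 2 *Arabidopsis thaliana* demes for how they stood after 48 h of bicarbonate. The values are log2 CPM, a gene's reads relative to the total of its library, on a log2 scale. A gene had to have a mean of at least 2 log2 CPM in T6(c-) at pH 5.9 after 48 h, and its mean in A1(c+) with bicarbonate had to lie within 0.5 of its mean in A1(c+) at pH 5.9 at the same time. The 11587 genes that met both limits were ranked by the gap in T6(c-) between the lower of the pH 5.9 replicates and the higher of the bicarbonate replicates, and the first 100 were kept. The gap was above 0 in 3291 genes. It was 3.75 for ARR15 at rank 1, it was 1.44 for the uncharacterized gene AT4G28180 at rank 100, and it was 1.44 for AT5G02710 and 1.43 for bHLH071, the first genes outside the limit.

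The plants were grown in hydroponics in diluted Hoagland solution at pH 5.9 and were 15 days old when treated with 10 mM NaHCO3 at pH 8.3 (bic), with pH 8.3 held by an organic buffer, or with pH 5.9 (control). Leaves were taken after 3 h and 48 h, so 12 groups were formed by T6(c-), the deme labelled sensitive, and A1(c+), the deme labelled tolerant, under the 3 solutions at the 2 times. The buffers MES and BTP were in all 3 solutions. The table has 2 columns for each group, each the sum of 3 libraries (72 libraries in all). They are read here as 2 biological replicates with 3 technical replicates each, although the methods also speak of 3 biological replicates in the pooling of plants. The p-values below rest on the spread between the 2 columns of a group, pooled over the 12 groups. This spread may be partly technical, and it is not that of the compared groups alone. The demes are local natural populations, each followed here as 1 line, so a difference between them is one between 2 lines.

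Light is captured in leaves by antenna proteins that bind chlorophyll a and b. Those of the LHCA family serve photosystem I and those of the LHCB family serve photosystem II. The antenna genes and the nuclear genes of the photosystem subunits are transcribed together in green, illuminated mesophyll cells, and they are repressed by darkness, sugar and signals from damaged plastids. Cytokinins favour greening and leaf growth, and type-A response regulators such as ARR7 and ARR15 are induced within minutes by cytokinin and dampen its signal. Bicarbonate in the nutrient solution buffers the pH around roots, and it is known for the iron chlorosis it causes in plants of lime-poor soils.

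By annotation, 58 of the 100 genes were put into 11 roles and 42 were left without one. The largest block was photosynthetic, with 10 antenna genes, 5 genes of photosystem I, 6 of photosystem II, and 9 other genes of thylakoids and chloroplasts. The rest were 3 cytokinin genes, 5 auxin genes, 6 brassinosteroid and light regulators, 3 genes of transport and iron reduction, 5 of cell division and chromatin, 4 of the cell wall and 2 of photorespiration. Proteins named for a photosystem, the antenna or chlorophyll binding made up 23.0% of the 100 genes and 0.36% of all genes. The rule did not use annotation. Chromosome 1 held 39 of the 100 genes and 26.3% of all genes.

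A working name of the set, genes lowered by bicarbonate only in T6(c-), went against the data. In A1(c+), 83 of the 100 genes were also lower with bic after 48 h than at pH 5.9, with a median difference of -0.31 on the log2 CPM scale and a range of -0.50 to 0.49, against a median of 0.18 over all genes. Both A1(c+) bic replicates lay below both A1(c+) pH 5.9 replicates in 48 of the 100 genes and in 13% of all genes, a comparison that the rule used. The difference was between -0.5 and -0.25 in 61 of the genes and above 0.25 in 9. In T6(c-) the median difference was -1.93 (range -4.29 to -1.49), against 0.30 over all genes. Both T6(c-) bic replicates lay below both pH 5.9 replicates in all 100 genes by the rule itself, and in 26.9% of all genes. These 4 groups chose the genes, so their values are given as a description with no test. The rule thus took genes far below pH 5.9 in T6(c-) and held them to a small difference of means in A1(c+). In 14 of the 100 genes the 2 A1(c+) bic 48 h replicates differed by more than 1 log2, so the small difference was an average of unlike values. Among them, AT5G57760 had 3.12 and 19.9 CPM, AT1G07450 4.03 and 0.443 CPM, and BEE3 1.15 and 5.36 CPM.

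**Figure D1:**
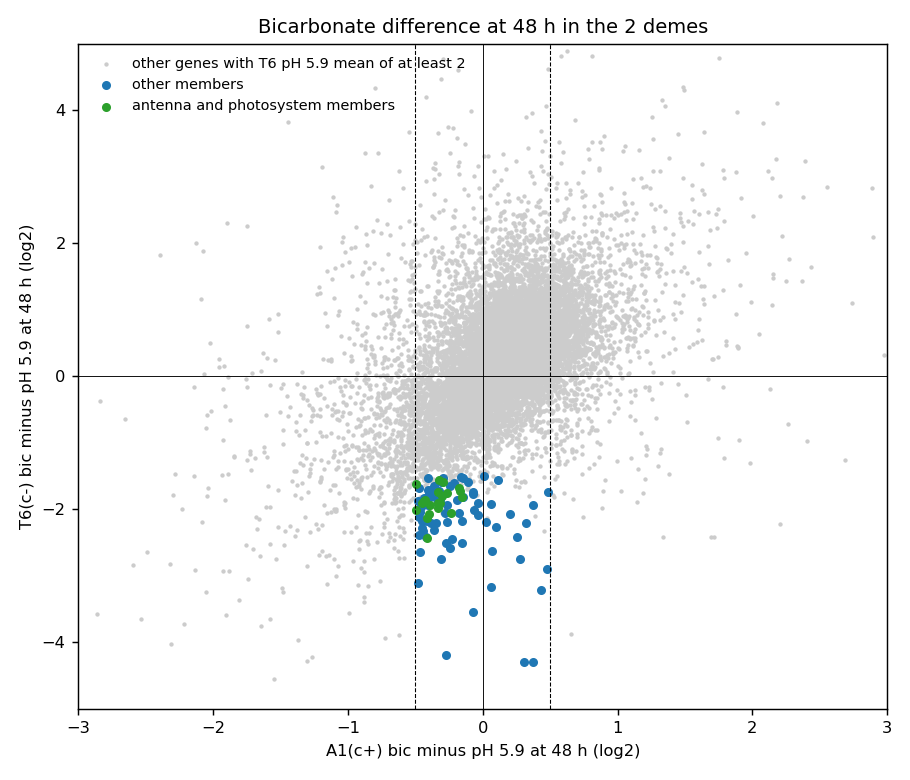
The bic minus pH 5.9 difference after 48 h in T6(c-), in log2 CPM, is plotted upward against the same difference for A1(c+). The 14559 points drawn are the genes at or above the level limit (23 more lie outside the axes), of which green points are the 21 chosen antenna and photosystem genes and blue points the other 79 chosen genes, and dashed lines mark the limits in A1(c+). The chosen genes form a strip at low T6(c-) values that ends at the limits of -0.5 and 0.5 in A1(c+), and 83 of them lie on the negative side of A1(c+).

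Library totals ran from 63.5 M to 121 M reads (median 99.7 M), so precision rested on the 2 replicates. Control replicates of T6(c-) were much alike, with a median gap over the 100 genes of 0.03 log2 at 48 h, against 0.41 between the T6(c-) bic replicates. In a chi-square comparison of their reads these pH 5.9 pairs differed by 2.41 and 3.43 per gene at 3 h and 48 h. Sampling gives a value of 1, and the other groups had 45.8 (T6(c-) pH 8.3 3 h) to 503 (A1(c+) pH 8.3 48 h). The pairs were kept as 2 replicates, but their spread is far nearer to sampling than that of the other groups. Whether it holds the spread between plants was not tested. The rule, counts of replicates below these pairs, and the pooled spread all draw on them. One column, labelled bic 3 h replicate 2 of A1(c+) and summed from 3 libraries, went against its label in marker genes of the demes. The 23 genes found in the T6(c-) columns and near absent from the A1(c+) columns stood there at 83.2% of their T6(c-) level, and the 7 genes of the opposite kind at 3.03% of their A1(c+) level. Chosen genes that differed between the demes were mixed there. AT4G18900 had 0.0153 CPM and AT1G27030 70.1 CPM, like A1(c+) at pH 5.9 after 3 h (0.0308 and 0.0134, and 70.8 and 114 CPM). AT1G63100 had 8.29 CPM, like T6(c-) with bic after 3 h (11.5 and 6.56 CPM) and unlike replicate 1 (0.692 CPM). Where the column is said below to go against its label, only the marker genes are meant. T6(c-) bic 48 h replicate 1 had the A1(c+) genes at 6.17%, above other T6(c-) columns (0.173% to 1.16%). In the study's list of libraries, A1(c+) bic 3 h replicate 2, T6(c-) pH 8.3 48 h replicate 1 and A1(c+) pH 8.3 48 h replicate 1 are numbered with another letter than nearly all others, and what the letter means is not given in the sources used here. The main comparisons that use these 3 columns directly are also given without them. Through the pooled spread, all p-values below draw on them too, and counts of called genes without them are given in the closing section. Correlations are given only with them.

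To show the starts of genes that stood out together, the 250 bases before the annotated start are printed for the 4 photosystem and antenna genes that held both letters GATAAG (the I-box, known from light-regulated plant promoters) and CACGTG (the G-box, bound by light-related bZIP and bHLH factors). Both motifs were searched on both strands in windows of 300 bases, 250 before and 50 after the start. The sequences are from RefSeq, assembly TAIR10.1, 5′ to 3′ on the strand of the gene, at chr1:19454548-19454797 (plus) for PSAH2, chr4:2673244-2673493 (minus) for PSBQ-2, chr1:19052583-19052832 (minus) for AT1G51400 and chr3:17495034-17495283 (minus) for LHCA4. Capitals mark the I-box, also in its reverse form CTTATC, and the G-box, and the I-box of LHCA4 lies past the printed stretch.
PSAH2: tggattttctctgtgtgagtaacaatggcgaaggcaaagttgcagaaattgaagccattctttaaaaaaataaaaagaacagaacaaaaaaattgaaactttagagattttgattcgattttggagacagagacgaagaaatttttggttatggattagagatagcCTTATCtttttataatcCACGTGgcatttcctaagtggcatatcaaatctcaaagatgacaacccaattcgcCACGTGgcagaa
PSBQ-2: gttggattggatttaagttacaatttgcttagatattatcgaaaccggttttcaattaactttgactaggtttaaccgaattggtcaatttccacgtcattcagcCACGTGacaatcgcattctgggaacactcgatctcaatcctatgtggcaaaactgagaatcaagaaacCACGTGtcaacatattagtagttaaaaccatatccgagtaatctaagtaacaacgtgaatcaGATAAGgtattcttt
AT1G51400: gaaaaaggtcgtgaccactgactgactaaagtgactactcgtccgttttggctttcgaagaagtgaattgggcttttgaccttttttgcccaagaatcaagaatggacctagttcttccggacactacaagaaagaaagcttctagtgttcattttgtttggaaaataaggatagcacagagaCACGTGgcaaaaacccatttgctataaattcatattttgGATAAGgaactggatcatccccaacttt
LHCA4: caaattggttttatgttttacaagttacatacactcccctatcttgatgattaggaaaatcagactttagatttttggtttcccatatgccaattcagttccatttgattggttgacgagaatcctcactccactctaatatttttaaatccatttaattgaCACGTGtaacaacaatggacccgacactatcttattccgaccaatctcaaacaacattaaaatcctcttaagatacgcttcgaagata
Read from 5′ to 3′, PSAH2 and PSBQ-2 each held 2 G-boxes and 1 I-box in the printed stretch, and AT1G51400 held 1 of each.

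Across the 18532 promoters of the table's genes that could be read, the I-box stood in 14.9%, and in 34% of the 100 chosen genes. Among the 21 antenna and photosystem genes it stood in 9 (42.9%). The G-box stood in 9.07% of all promoters, in 8% of the chosen genes and in 6 of the 21 antenna and photosystem genes (28.6%). Both motifs stood together in 1.57% of all promoters and in 4 of the 21. The evening element AAAATATCT (3% of the chosen genes and 3.09% of all), the W-box core TTGAC (47% and 50.8%) and the telo-box AAACCCTA (3% and 5.59%) stood at like shares in the chosen genes and in all genes, and the TCP site GGNCCC at 14% and 9.96%. These letters are matches and were not tested as binding sites.

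The 10 antenna genes kept close together. With bic after 48 h they differed by a median of -1.84 in T6(c-) (range -2.43 to -1.59), and of -0.32 in A1(c+) (range -0.45 to -0.15), with the same sign in all 10 genes in each deme. For the 21 antenna and photosystem genes together the medians were -1.88 in T6(c-) and -0.33 in A1(c+), against -2.18 and -0.49 with TMM factors and -1.55 and -0.19 with quantile normalization, where 18 of 21 were below 0 in A1(c+). LHCB3, a subunit of the trimeric antenna of photosystem II, had 968 and 719 CPM in T6(c-) with bic after 48 h, 4231 and 3441 CPM at pH 8.3, and 4460 and 4517 CPM at pH 5.9. In A1(c+) it had 2170 and 3110 CPM with bic, 3521 and 4467 CPM at pH 8.3, and 3786 and 3161 CPM at pH 5.9. The T6(c-) bic replicates were thus below all other 48 h replicates, while those of A1(c+) with bic lay below its pH 5.9 replicates by a smaller gap.

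CAB3 and CAB2 encode nearly the same LHCB1 protein, the main antenna protein of photosystem II, and reads of such close copies may be split uncertainly between them. After 48 h, CAB3 had 2791 and 2199 CPM in T6(c-) with bic, 10975 and 7374 CPM at pH 8.3, and 10450 and 10236 CPM at pH 5.9. In A1(c+) its values were 4743 and 3694 CPM with bic, 7982 and 7249 CPM at pH 8.3, and 5335 and 4568 CPM at pH 5.9, so that the bic and pH 5.9 replicates overlapped. CAB2 was 1.81 log2 lower with bic in T6(c-) and 0.30 log2 lower in A1(c+).

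LHCB2.1 and LHCB2.2, the second LHCII protein and the one phosphorylated in state transitions, are a further pair of near copies. LHCB2.2 had 1014 and 922 CPM in T6(c-) with bic after 48 h, 3190 and 2048 CPM at pH 8.3, and 2904 and 2923 CPM at pH 5.9, and in A1(c+) 3335 and 3999 CPM with bic, 5098 and 5542 CPM at pH 8.3, and 4660 and 4289 CPM at pH 5.9. LHCB2.1 was 1.73 log2 lower with bic in T6(c-), and it differed by -0.17 in A1(c+). The antenna of photosystem I was there with LHCA1 (-1.81 in T6(c-) and -0.15 in A1(c+)), LHCA3 (-1.74 and -0.33), LHCA4 (-1.88 and -0.43) and Lhca6 (-1.90 and -0.45), of which Lhca6 links photosystem I to the NDH complex. LHCB4.2, the inner antenna protein CP29, differed by -1.98 in T6(c-) and by -0.33 in A1(c+).

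The chosen antenna genes are part of a wider family that moved the same way. Of 17 measured genes on a list of light-harvesting genes, all 17 were lower with bic after 48 h in T6(c-) (median -1.82) and 16 of 17 in A1(c+) (median -0.41), and 9 of the 17 were chosen. CAB1, another LHCB1 copy, differed by -2.86 for T6(c-) and -1.07 for A1(c+), while LHB1B1 differed by -4.54 and -1.55, and both were kept out by the limit on A1(c+). LHCB5 (-2.27 and -0.73) and LHCB6 (-2.73 and -0.62), the inner antenna proteins CP26 and CP24, were kept out in the same way. Over the 67 genes of the table named for a photosystem, the antenna or chlorophyll binding, 63 were lower in T6(c-) (median -1.68) and 59 in A1(c+) (median -0.33), and 17 failed the A1(c+) limit while they met the level limit. By the rule, the photosynthetic genes among the 100 are those with an A1(c+) difference no larger than 0.5.

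The 5 photosystem I genes differed by -2.14 to -1.68 in T6(c-) with bic after 48 h, and by -0.43 to -0.17 in A1(c+). PSAH2 and PSAO encode subunits at the side where LHCII docks. PSAH2 had 277 and 242 CPM in T6(c-) with bic, 986 and 831 CPM at pH 8.3, and 1103 and 1174 CPM at pH 5.9, while in A1(c+) it had 490 and 666 CPM with bic, 809 and 972 CPM at pH 8.3, and 864 and 667 CPM at pH 5.9. PSAO showed differences of -1.90 for T6(c-) and -0.33 for A1(c+), and PSAG, which helps to hold the antenna, by -1.91 and -0.32. PSAD-1 and PSAE-1, on the stromal side where ferredoxin is reduced, differed by -1.68 and -1.86 in T6(c-). PSAE-1 overlaps the uncharacterized gene AT4G28755, also among the 100, by 436 bases on the opposite strand, and since the libraries were unstranded the reads of the pair cannot be told apart.

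Among the 6 photosystem II genes the range was -2.07 to -1.57 in T6(c-) and -0.50 to -0.26 in A1(c+). PSBP-1 and PSBQ-2 encode extrinsic proteins that hold the manganese cluster of water oxidation. PSBP-1 had 1103 and 966 CPM in T6(c-) with bic after 48 h, 3730 and 3292 CPM at pH 8.3, and 3925 and 3984 CPM at pH 5.9, and in A1(c+) 2287 and 2558 CPM with bic, 3264 and 4179 CPM at pH 8.3, and 3457 and 2903 CPM at pH 5.9. All T6(c-) bic values were below all others at this time, and the A1(c+) bic values were next. PSBQ-2 differed by -2.01 in T6(c-), the small subunit genes PSBW and PSBX by -1.62 and -1.75, AT1G51400 (a 5 kD protein of photosystem II) by -2.07, and PSB27, which serves in repair of the complex, by -1.57. PSBW had the most negative A1(c+) difference of the 100, at -0.50.

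The other 9 chloroplast genes had a median of -1.75 in T6(c-) and -0.33 in A1(c+). FdC1, a ferredoxin with an extended C terminus, had 17.5 and 11.2 CPM in T6(c-) with bic, 82.6 and 62.6 CPM at pH 8.3, and 78.4 and 74.5 CPM at pH 5.9, against 58.3 and 58.6 CPM with bic, 75.0 and 90.5 CPM at pH 8.3, and 71.6 and 65.6 CPM at pH 5.9 in A1(c+). FdC1 shares 688 bases with AT4G14900 on the opposite strand. The others serve assembly and shape: PSI-P, now known as a curvature protein of grana (-1.80 in T6(c-)), PPD1 for photosystem I assembly (-1.69), the cyclophilin CYP38 for photosystem II assembly (-1.53), PnsL1 and PnsL3 of the NDH complex (-1.73 and -2.17), the plastid ribosomal protein RPL12-C (-1.61), the RNA-binding protein CRB (-1.75) and RbcX1, a chaperone of Rubisco assembly (-2.27). Of photorespiration, the glycine cleavage T protein AT1G11860 differed by -1.65 and the glyoxylate reductase GLYR2 by -1.71 in T6(c-), and by -0.36 and -0.41 in A1(c+).

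At pH 8.3 without bicarbonate, the antenna and photosystem genes of T6(c-) stood near their pH 5.9 levels after 48 h, with differences of -0.44 to 0.02 (median -0.24). None of the 21 was more than 1 log2 below the pH 5.9 mean in either replicate. In T6(c-) with bic all 21 had both replicates below both pH 8.3 replicates, with a median difference of -1.64. Over the 100 genes, 86 had both bic replicates below both pH 8.3 replicates in T6(c-) after 48 h, against 21% of all genes, and the median was -1.63. Both T6(c-) pH 8.3 replicates lay below both pH 5.9 replicates in 54 of the 100 and in 21.7% of all genes, but the median there was -0.24. With T6(c-) pH 8.3 replicate 2 alone, in place of both, the count below pH 8.3 was 97 (28.4% of all genes), that of pH 8.3 below pH 5.9 was 78 (48.1%), and the 21 antenna and photosystem genes had medians of -1.46 for bic against pH 8.3 and -0.44 for pH 8.3 against pH 5.9. These comparisons share the bic or the pH 5.9 columns that the rule used and were not tested.

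In 14 of the 100 genes the bic and pH 8.3 replicates of T6(c-) overlapped after 48 h. In 10 of them pH 8.3 replicate 1 alone was more than 1 log2 below the pH 5.9 mean, in 2 replicate 2 alone, and in 2 both. AT3G49340, a cysteine proteinase, had 0.519 and 0.247 CPM in T6(c-) with bic after 48 h, 0.568 and 0.197 CPM at pH 8.3, and 4.08 and 4.32 CPM at pH 5.9. AT1G27030, of no known function, had 119 and 217 CPM in T6(c-) with bic, 42.0 and 548 CPM at pH 8.3, and 673 and 679 CPM at pH 5.9. T6(c-) pH 8.3 replicate 1 was far below replicate 2 in AT1G27030, and this also held for FUT8 and AT3G06145. In AT1G27030, FUT8 (0.880 CPM) and AT1G76530 (3.31 CPM) replicate 1 stood near the A1(c+) pH 5.9 values after 48 h. Those were 33.0 and 45.6, 1.48 and 1.58, and 3.164 and 2.985 CPM in the same order. AT3G06145, at 4.05 CPM, stood below A1(c+) too (29.1 and 26.0 CPM). In this column the T6(c-) marker genes were at 72.1% of their T6(c-) level and the A1(c+) ones at 1.16%. Whether pH 8.3 lowered these genes in T6(c-) was not tested. Over the 100 genes, replicate 1 was more than 1 log2 below the pH 5.9 mean in 18, replicate 2 in 8, and both in 2, and replicate 1 is 1 of the 3 columns numbered with the other letter.

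**Figure D2:**
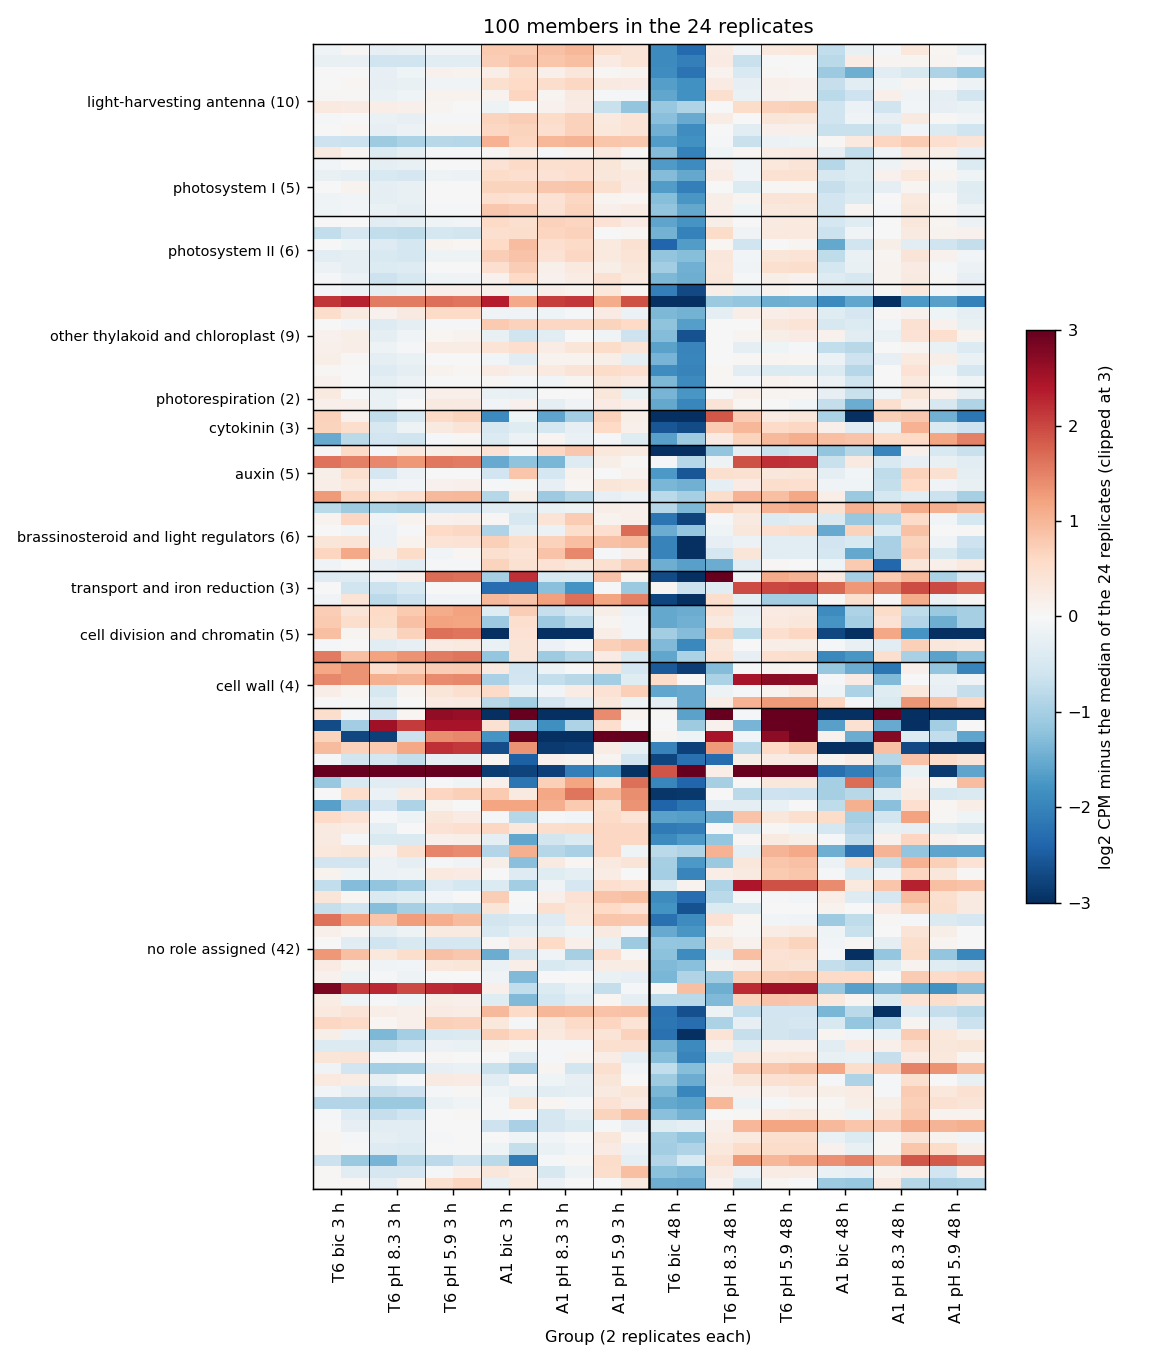
Each row is 1 of the 100 genes, ordered by role, and each column is 1 of the 24 biological replicates, 2 for each group. The colour gives log2 CPM minus the median of that gene over the 24 replicates, clipped at 3 in either direction, with blue for lower values. In most antenna and photosystem rows the deepest blue stands in the 2 columns of T6(c-) with bic after 48 h. A paler blue stands in many of these rows in the A1(c+) bic 48 h columns, but not in LHCB2.2. LHCB2.1 is lowest in A1(c+) pH 5.9 3 h replicate 2. Genes such as PSBQ-2 and LHCB4.2 are also low in the T6(c-) 3 h columns, and LHCB2.2 is lower in every T6(c-) column than in any A1(c+) column.

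The cytokinin genes had the lowest median of any role in T6(c-), at -3.22, and in A1(c+) ARR15 differed by -0.27, ARR7 by 0.43 and IPT3 by -0.47. ARR15 had 0.605 and 0.344 CPM in T6(c-) with bic after 48 h, 24.7 and 11.6 CPM at pH 8.3, and 8.11 and 8.53 CPM at pH 5.9, a level 18.2-fold lower with bic than at pH 5.9. In A1(c+) it had 3.53 and 0.732 CPM with bic, 11.2 and 11.9 CPM at pH 8.3, and 2.51 and 1.5 CPM at pH 5.9, where the bic replicates lay on both sides of the pH 5.9 values. At pH 8.3 ARR15 was above pH 5.9 in both demes, so the 2 solutions of the same pH stood on opposite sides of the control in T6(c-).

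ARR7 had 4.15 and 3.80 CPM in T6(c-) with bic after 48 h, 41.7 and 48.5 CPM at pH 8.3, and 36.4 and 37.5 CPM at pH 5.9, and in A1(c+) 27.2 and 19.4 CPM with bic, 22.1 and 50.1 CPM at pH 8.3, and 18.1 and 15.9 CPM at pH 5.9. The demes thus differed in sign for ARR7. IPT3, an isopentenyltransferase that makes cytokinin precursors and that nitrate induces, had 3.18 and 4.71 CPM in T6(c-) with bic, 11.8 and 15.8 CPM at pH 8.3, and 19.3 and 21.3 CPM at pH 5.9. In A1(c+) IPT3 had 18.6 and 17.9 CPM with bic, 14.4 and 15.1 CPM at pH 8.3, and 22.6 and 28.5 CPM at pH 5.9. ARR7 and ARR15 are close paralogs, and their log2 CPM over the 16 columns that the rule did not use had r = 0.81, as a description.

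Of the 3 genes of transport and iron reduction, SULTR3;5, a sulfate transporter subunit, had 0.326 and 0.150 CPM in T6(c-) with bic after 48 h, 17.5 and 1.88 CPM at pH 8.3, and 4.49 and 4.2 CPM at pH 5.9. The pH 8.3 replicates fell on both sides of the pH 5.9 values. In A1(c+) it had 2.50 and 1.05 CPM with bic, 3.52 and 4.13 CPM at pH 8.3, and 1.07 and 1.46 CPM at pH 5.9. AMT1;2, an ammonium transporter, had 71.1 and 43.6 CPM in T6(c-) with bic, 55.1 and 265 CPM at pH 8.3, and 272 and 282 CPM at pH 5.9, and in A1(c+) 227 and 168 CPM with bic, 201 and 265 CPM at pH 8.3, and 268 and 236 CPM at pH 5.9. FRO6, a ferric chelate reductase of leaf cells, had 23.6 and 12.1 CPM in T6(c-) with bic, 231 and 132 CPM at pH 8.3, and 77.7 and 78.1 CPM at pH 5.9. In A1(c+) FRO6 had 162 and 224 CPM with bic, 158 and 348 CPM at pH 8.3, and 141 and 165 CPM at pH 5.9, so that its decrease with bic stood in T6(c-) and its A1(c+) replicates overlapped.

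**Figure D3:**
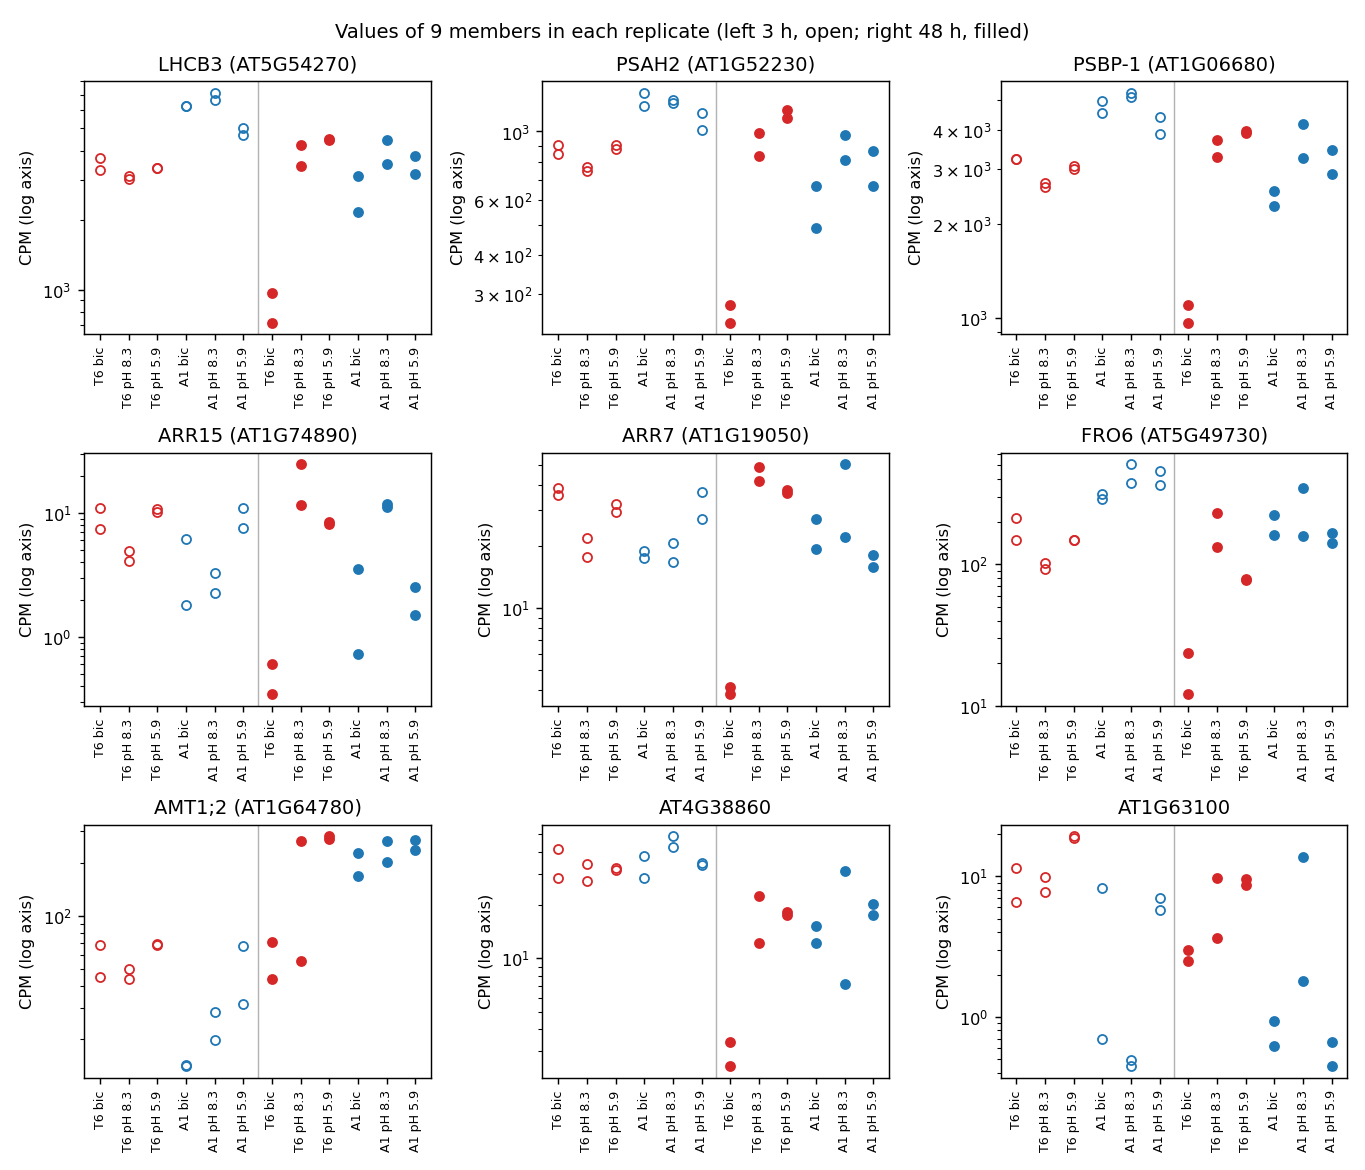
CPM on a log axis of 9 chosen genes in every biological replicate (a point each), with bic, pH 8.3 and pH 5.9 from left to right for T6(c-) (red) and A1(c+) (blue), after 3 h (open) and 48 h (filled). LHCB3, PSAH2 and PSBP-1 sit lowest in T6(c-) with bic after 48 h (968 and 719 CPM for LHCB3), ARR15 and FRO6 lie above their pH 5.9 values at pH 8.3 and far below with bic in T6(c-) after 48 h, and AT1G63100 spreads widely between the A1(c+) replicates.

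The 5 auxin genes had a median of -2.51 in T6(c-) and 0.06 in A1(c+), with A1(c+) values from -0.46 to 0.37. AT4G38860, of the SAUR family of auxin-induced growth genes, had 3.37 and 2.47 CPM in T6(c-) with bic after 48 h, 12.2 and 22.6 CPM at pH 8.3, and 17.5 and 18.3 CPM at pH 5.9, and in A1(c+) 12.2 and 15.3 CPM with bic, 7.17 and 31.1 CPM at pH 8.3, and 20.2 and 17.6 CPM at pH 5.9. The SAUR-like genes AT4G38840 and AT1G20470 differed by -1.92 and -1.94 in T6(c-) and by 0.06 and 0.37 in A1(c+). AT1G76530, of the auxin efflux carrier family, had 3.62 and 2.03 CPM in T6(c-) with bic, 3.31 and 14.0 CPM at pH 8.3, and 16.8 and 16.7 CPM at pH 5.9. In A1(c+) its 6 values after 48 h were between 2.34 and 4.45 CPM, so it stood at the level that T6(c-) reached with bic.

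Among the brassinosteroid and light regulators, BEE2 and BEE3 encode bHLH factors induced by brassinosteroid, and PRE1 a small bHLH protein that promotes cell elongation. BEE2 had 8.40 and 5.60 CPM in T6(c-) with bic after 48 h, 37.3 and 46.2 CPM at pH 8.3, and 28.7 and 30.5 CPM at pH 5.9, against 28.4 and 17.5 CPM with bic, 21.2 and 57.2 CPM at pH 8.3, and 36.2 and 26.7 CPM at pH 5.9 in A1(c+). PRE1 differed by -2.42 in T6(c-) and by -0.43 in A1(c+), and BEE3 by -1.85 and -0.43. BBX16, a B-box protein of light signalling, had 82.0 and 58.4 CPM in T6(c-) with bic, 243 and 207 CPM at pH 8.3, and 307 and 322 CPM at pH 5.9, and in A1(c+) 205 and 307 CPM with bic, 253 and 322 CPM at pH 8.3, and 310 and 292 CPM at pH 5.9. The A1(c+) bic and pH 5.9 replicates of BBX16 overlapped. BBX15 differed by -1.57 for T6(c-) and 0.11 for A1(c+), while the NPH3-family gene AT3G15570 differed by -2.18 and -0.16.

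The 5 genes of cell division and chromatin lay within -1.83 to -1.74 in T6(c-). The histone gene AT5G10390 had 4.62 and 4.79 CPM in T6(c-) with bic after 48 h, 17.8 and 11.3 CPM at pH 8.3, and 16 and 16.3 CPM at pH 5.9, and in A1(c+) 3.65 and 7.12 CPM with bic, 19.8 and 7.98 CPM at pH 8.3, and 6.22 and 6.75 CPM at pH 5.9. The chromatin protein HMGB6 differed by -1.81 for T6(c-) and -0.15 for A1(c+), while AT1G76110, an HMG-box protein, differed by -1.83 and -0.44. The GRAS factor AT1G63100 had 3.00 and 2.49 CPM in T6(c-) with bic, 9.79 and 3.66 CPM at pH 8.3, and 8.68 and 9.53 CPM at pH 5.9, while in A1(c+) it had 0.932 and 0.622 CPM with bic, 13.7 and 1.79 CPM at pH 8.3, and 0.661 and 0.447 CPM at pH 5.9. A1(c+) was thus near 1 CPM or below with bic and at pH 5.9. Over 9 cell cycle genes, none of them among the 100, the summed level was 31.1 and 30.2 CPM in T6(c-) with bic, 76.4 and 42.9 CPM at pH 8.3, and 48.0 and 47.7 CPM at pH 5.9, and in A1(c+) it was 27.3 and 7.80 CPM with bic, 113 and 28.8 CPM at pH 8.3, and 9.54 and 10.8 CPM at pH 5.9. The part of dividing cells in these differences was not tested.

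Of the 4 cell wall genes, XTH31, a xyloglucan-modifying enzyme, had 18.4 and 14.9 CPM in T6(c-) with bic after 48 h, 42.7 and 105.3 CPM at pH 8.3, and 113 and 110 CPM at pH 5.9, and in A1(c+) 47.8 and 37.8 CPM with bic, 23.4 and 117 CPM at pH 8.3, and 46.8 and 26.4 CPM at pH 5.9. Its A1(c+) replicates overlapped. The fucosyltransferase FUT8 differed by -2.42 in T6(c-) with bic and by -1.93 at pH 8.3, where its replicates were at 0.880 and 9.33 CPM.

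In 6 of the 100 genes the A1(c+) mean at pH 5.9 after 48 h was under 1 CPM, which left little room for a decrease. AT4G18900, a WD40-repeat gene, had 0.391 and 1.04 CPM in T6(c-) with bic, 0.120 and 2.53 CPM at pH 8.3, and 5.69 and 5.73 CPM at pH 5.9, and at most 0.0921 CPM in any A1(c+) replicate after 48 h. AT5G59305, a CLE-like peptide gene, had 0.433 and 0.141 CPM in T6(c-) with bic, 4.44 and 0.417 CPM at pH 8.3, and 4.61 and 5.09 CPM at pH 5.9, while the A1(c+) replicates lay at or near 0 reads except for 5.77 CPM at pH 8.3 in replicate 1. The others were AAE2, AT1G73620, AT3G49340 and the GRAS factor AT1G63100. The limit on A1(c+) thus did not tell a gene that held its level from one that had hardly any.

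**Figure D4:**
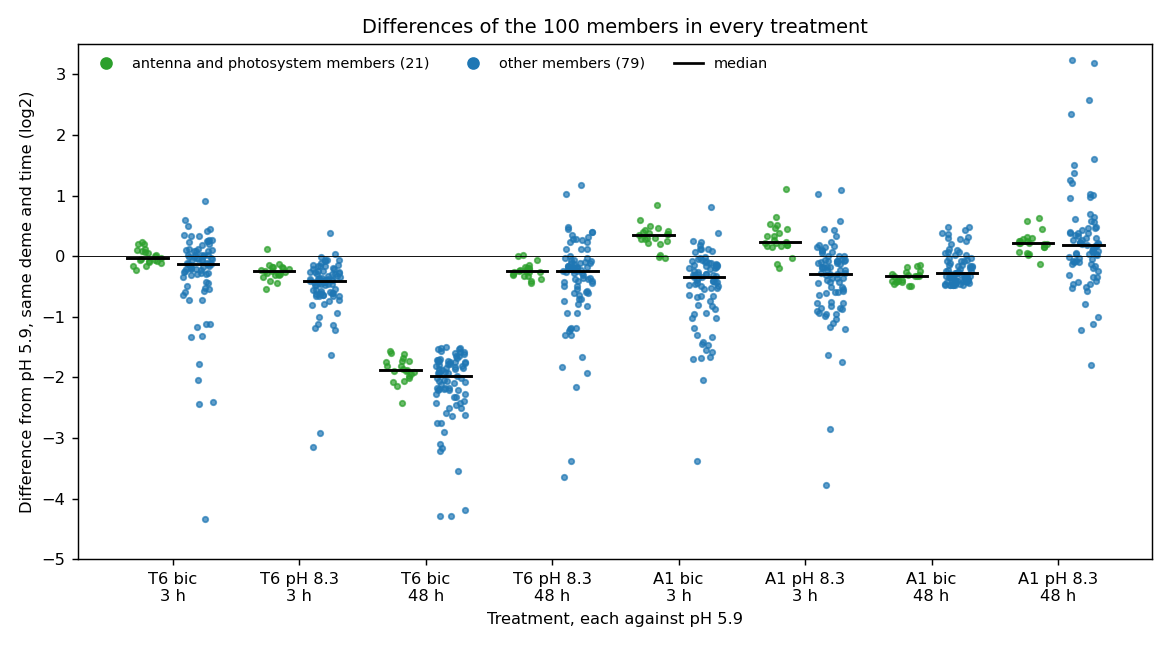
Differences from pH 5.9 of the same deme and time, in log2 CPM, with a point per gene and a bar at the median, for the 21 antenna and photosystem genes (green) and the other 79 genes (blue) in each treatment, time and deme (3 points lie outside the axis). The points of T6(c-) with bic after 48 h all lie at or below -1.49, the A1(c+) bic 48 h points are held between -0.5 and 0.5 by the rule, and the green medians in A1(c+) after 3 h lie above 0.

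The change over time is a description, since the rule took genes that were low in T6(c-) with bic after 48 h. In T6(c-) with bic the 48 h mean was more than 1 log2 below the 3 h mean in 84 of the 100 genes (median -1.68) and in 12.7% of all genes, and in T6(c-) at pH 5.9 in 7 (median 0.17) and in 11.2% of all genes. In A1(c+) it was so in 35 genes with bic (10.4% of all genes) and in 25 at pH 5.9 (17.1%). The A1(c+) count with bic was 30 (7.49% of all genes) without the 3 h replicate that went against its label. LHCB3 after 3 h had 3290 and 3714 CPM in T6(c-) with bic, 3029 and 3104 CPM at pH 8.3, and 3375 and 3360 CPM at pH 5.9, and PSBP-1 had 3237 and 3236 CPM, 2629 and 2703 CPM, and 3006 and 3083 CPM in the same order. For other genes the 48 h gap was a rise at pH 5.9 that was lacking with bic. AMT1;2 was 2.01 log2 higher after 48 h than after 3 h at pH 5.9 in T6(c-) and 0.01 higher with bic, and BBX16 was 1.59 higher at pH 5.9 and differed by -0.15 with bic. RbcX1 was lower after 48 h in both, with differences of -5.94 with bic and -3.08 at pH 5.9.

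The 3 h groups did not enter the rule and were tested across all genes with limma, which borrows the spread over the 12 groups. A gene was called at a Benjamini-Hochberg adjusted p under 0.05 and a log2 difference beyond 1 in either direction. With bic after 3 h in T6(c-), limma called 0 of the 100 genes and 0% of all genes, and an unadjusted p under 0.05 was met by 6 of the 100 (8.68% of all genes). The count depends on the pooled spread, and some fits of fewer columns, given in the closing section, called genes here. The 0 is thus no proof that T6(c-) did not respond after 3 h. The median difference was -0.07, also the median of all genes. Both bic replicates lay below both pH 5.9 replicates in 48 of the 100, near the 45.7% of all genes. The 21 antenna and photosystem genes lay between -0.22 and 0.23.

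A few genes of the 100 had low values already after 3 h. IPT3 had 3.49 and 5.63 CPM in T6(c-) with bic and 9.73 and 10.1 CPM at pH 5.9, a log2 difference of -1.16 (SE 0.24, limma adjusted p = 0.191). AT3G49340 had 0.0816 and 0.253 CPM with bic and 2.91 and 2.91 CPM at pH 5.9, a log2 difference of -4.34 (SE 0.85, limma adjusted p = 0.191). SULTR3;5 had 1.6 and 1.6 CPM with bic, 1.95 and 2.33 CPM at pH 8.3, and 6.60 and 6.53 CPM at pH 5.9, so that the pH 8.3 solution gave a like value (bic difference -2.04, SE 0.93, limma adjusted p = 0.56). The groups did not overlap in any of the 3 genes, and no call was made. The SE takes in the spread of other groups, such as 1.05 and 9.52 CPM of SULTR3;5 in A1(c+) with bic after 3 h.

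At pH 8.3 after 3 h the T6(c-) genes were a little below pH 5.9. Both pH 8.3 replicates lay below both pH 5.9 replicates in 93 of the 100 genes, against 41.7% of all genes, with a median difference of -0.38, against -0.01 over all genes. Of the 21 antenna and photosystem genes 20 were on the lower side (median -0.25). limma called 0 of the 100 and 0% of all genes, with 21 of the 100 at an unadjusted p under 0.05 (9.72% of all genes). Here too the count depends on the pooled spread, and some fits of fewer columns, given in the closing section, called genes. The shift held with TMM factors and with quantile normalization, at medians of -0.39 and -0.39. The bic and pH 8.3 comparisons share the pH 5.9 replicates, whose gap is small.

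In A1(c+) after 3 h of bic, limma called 0 of the 100 genes and 0.0161% of all genes, with 25 of the 100 at an unadjusted p under 0.05 (15.9% of all genes). Both bic replicates lay below both pH 5.9 replicates in 38 of the 100 (34.7% of all genes). Without the 3 columns numbered with the other letter, which include the bic replicate that went against its label, 10 of the 100 and 5.31% of all genes were called, all 10 lower. Without that bic replicate alone, 0 of the 100 and 0.0538% of all genes were called, 21 of the 100 had an unadjusted p under 0.05 (19% of all genes), and replicate 1 lay below both pH 5.9 replicates in 53 of the 100 (63.4% of all genes). The antenna and photosystem genes stood on the higher side in 19 of 21 (median 0.35, against -0.19 over all genes), and with replicate 1 alone also in 19 of 21 (median 0.26, against -0.25). With quantile normalization their median was 0.07, and with TMM factors 0.56. LHCB2.1 had 383 and 432 CPM in A1(c+) with bic, 469 and 510 CPM at pH 8.3, and 271 and 188 CPM at pH 5.9. LHCB3 had 6273 and 6242 CPM with bic, 6671 and 7159 CPM at pH 8.3, and 5005 and 4693 CPM at pH 5.9, so that both treatments were above the control in these genes.

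At pH 8.3 after 3 h in A1(c+), limma called 4 of the 100 genes lower, against 1.9% of all genes, and 2 higher, against 0.226%. LHCB2.1 was higher by 1.11 (SE 0.21, limma adjusted p = 0.0107) and AT4G28755 by 1.03 (SE 0.26, limma adjusted p = 0.031). AT5G56850, uncharacterized, had 90.7 and 106 CPM at pH 8.3 and 208 and 246 CPM at pH 5.9, and differed by -1.21 (SE 0.15, limma adjusted p = 0.00306). AT1G63100 had 0.491 and 0.446 CPM at pH 8.3 and 7.03 and 5.79 CPM at pH 5.9, and its difference was -3.77 (SE 0.94, limma adjusted p = 0.029). AAE2, an AMP-dependent synthetase, had 0.0557 and 0.00501 CPM at pH 8.3 and 9.12 and 14.8 CPM at pH 5.9. It shares 1811 bases with a gene on the opposite strand, and the lower value at pH 8.3 is that of 0 reads. AT1G18773, annotated as acyl thioesterase-like, differed by -1.03 (SE 0.23, limma adjusted p = 0.0204). Both pH 8.3 replicates lay below both pH 5.9 replicates in 47 of the 100, against 53.1% of all genes. The count of 6 (2.13% of all genes in either direction) became 1 without A1(c+) pH 5.9 3 h replicate 2 (0.0699%) or without A1(c+) pH 8.3 3 h replicate 2 (0.0484%), 2 without A1(c+) pH 8.3 3 h replicate 1 (0.581%), and 11 without the 3 columns numbered with the other letter (7.43%), so the share of all genes moved with it.

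The difference between the demes in the response to bic after 3 h was tested as an interaction, and limma called 0 of the 100 genes and 0% of all genes, with 11 of the 100 at an unadjusted p under 0.05 (8.01% of all genes). Without A1(c+) bic 3 h replicate 2, which went against its label, limma also called 0 of the 100 and 0% of all genes, with 6 of the 100 at an unadjusted p under 0.05 (6.45% of all genes). Without the 3 columns numbered with the other letter it called 0 of the 100 and 0.108% of all genes, and without A1(c+) bic 3 h replicate 1, which matched its label, 2 of the 100 and 1.27%. The antenna and photosystem genes had a median difference of -0.33, T6(c-) minus A1(c+), against 0.12 over all genes, with 18 of 21 below 0. Without A1(c+) bic 3 h replicate 2 the median was -0.30, against 0.19 over all genes, with 19 of 21 below 0. The interaction at 48 h is fixed by the rule and was not tested.

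Without treatment the demes differed in a few of the 100 genes. In the comparison of T6(c-) with A1(c+) at pH 5.9 after 3 h, limma called 3 of the 100 lower in T6(c-), against 2.42% of all genes, and 3 higher, against 2.31%. LHCB2.2 had 1846 and 1812 CPM in T6(c-) and 5833 and 5699 CPM in A1(c+), a log2 difference of -1.66 (SE 0.20, limma adjusted p = 0.0021). FRO6 had 148 and 149 CPM in T6(c-) and 361 and 454 CPM in A1(c+), a difference of -1.45 (SE 0.37, limma adjusted p = 0.025). AT1G50732, uncharacterized, differed by -1.27 (SE 0.22, limma adjusted p = 0.0048). AT4G18900 had 5.60 and 5.35 CPM in T6(c-) and 0.0308 and 0.0134 CPM in A1(c+), with few or no reads in A1(c+) (fitted difference 8.07, SE 1.14, limma adjusted p = 0.00237, which depends on the reads added before the log). AT1G27030 was higher in T6(c-) by 2.64 and AT3G52630, an OB-fold protein, by 1.68. The count of 6 (4.73% of all genes in either direction) was 2 without T6(c-) pH 5.9 3 h replicate 1 (0.511%) or replicate 2 (0.581%), 3 without A1(c+) pH 5.9 3 h replicate 2 (0.683%), and 15 without the 3 columns numbered with the other letter (10%). LHCB2.1 and LHCB2.2 stood in opposite directions between the demes, with 456 and 430 CPM of LHCB2.1 in T6(c-) and 271 and 188 CPM in A1(c+). These are near copies, and how reads were split between them in either deme was not tested.

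After 48 h at pH 8.3, limma called 1 of the 100 genes lower in T6(c-) than in A1(c+), against 0.5% of all genes, and 0 higher, against 0.317%. An unadjusted p under 0.05 was met by 12 of the 100 and by 13.7% of all genes. The gene was LHCB2.2, with 3190 and 2048 CPM in T6(c-) and 5098 and 5542 CPM in A1(c+), a difference of -1.06 (SE 0.20, limma adjusted p = 0.0251). The call was lost without A1(c+) pH 8.3 48 h replicate 2, where 5 other genes of the 100 were called (4% of all genes), and without T6(c-) pH 8.3 48 h replicate 2, where 2 other genes were (1.6%). Without T6(c-) pH 8.3 48 h replicate 1, 5 of the 100 were called (2.34% of all genes), and 7 without the 3 columns numbered with the other letter (4.85%).

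Between 48 h and 3 h at pH 8.3, limma called 6 of the 100 genes higher at 48 h in T6(c-), against 1.89% of all genes, and 2 lower, against 6.86%. ARR7 had 41.7 and 48.5 CPM after 48 h and 17.7 and 22.0 CPM after 3 h, a difference of 1.19 (SE 0.28, limma adjusted p = 0.0107). IPT3 had 11.8 and 15.8 CPM after 48 h and 6.61 and 6.57 CPM after 3 h (1.05, SE 0.24, limma adjusted p = 0.00806), and BBX16 was higher by 1.57 (SE 0.18, limma adjusted p = 0.000181). PP2-A10, a phloem protein gene, was higher by 1.97, the carrier gene AT5G26200 by 1.54, and PDX1L4, a PDX1-like gene, by 1.45, while RbcX1 differed by -2.70 and AT3G49340 by -2.97. The count of 8 (8.75% of all genes in either direction) was 4 without T6(c-) pH 8.3 3 h replicate 1 (3.34%), 16 without T6(c-) pH 8.3 48 h replicate 2 (11%), and 15 without the 3 columns numbered with the other letter (13.6%). With bic in T6(c-), ARR7 was 3.22 log2 lower and IPT3 0.20 log2 lower after 48 h than after 3 h.

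In A1(c+) the same comparison gave 8 of the 100 higher at 48 h, against 5.83% of all genes, and 4 lower, against 4.18%. ARR15 had 11.2 and 11.9 CPM after 48 h and 2.27 and 3.31 CPM after 3 h (2.07, SE 0.65, limma adjusted p = 0.0386). AMT1;2 had 201 and 265 CPM after 48 h and 28.5 and 19.7 CPM after 3 h (3.29, SE 0.52, limma adjusted p = 0.000858). BBX16, PDX1L4 and PP2-A10 were higher here too, as in T6(c-), by 1.13, 1.34 and 1.42, and RbcX1 was lower in both demes, with a difference of -4.49 in A1(c+) (SE 0.40, limma adjusted p = 1.14e-05). The others were AAE2, AT1G63100 and AT5G23920 on the higher side and AT4G38860, AT5G16030 and the kinase gene CIPK20 on the lower. The count of 12 (10% of all genes in either direction) was 7 without A1(c+) pH 8.3 3 h replicate 2 (5.11%), 22 without A1(c+) pH 8.3 48 h replicate 2 (16%), and 19 without the 3 columns numbered with the other letter (12.6%). Of the antenna and photosystem genes, 0 of 21 were below 0 over this span in T6(c-) (median 0.32) and 19 of 21 in A1(c+) (median -0.50), against 7 of 21 in T6(c-) and 17 of 21 in A1(c+) with quantile normalization, and 7 of 21 and 18 of 21 without the pH 8.3 48 h replicates numbered with the other letter. The difference between the demes itself was not tested.

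How the genes varied together was described over the 16 columns that the rule did not use. The median pairwise correlation was 0.13 over all 100 genes, 0.80 within the 21 antenna and photosystem genes and 0.88 within the 5 genes of cell division and chromatin, and it was -0.02 between the antenna and photosystem genes and the rest. These points share libraries, demes and times, and the values are a description. The 3 columns numbered with the other letter are among the 16, and no correlation is given without them. Division genes stood apart in some of these columns. AT1G63100 had 13.7 CPM in A1(c+) pH 8.3 48 h replicate 1 and 1.79 CPM in replicate 2.

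Beside the antenna list, none of the 12 measured genes of chlorophyll synthesis was among the 100, although their median was -1.25 for T6(c-) and -0.30 for A1(c+). The 10 iron storage genes had medians of -1.74 in T6(c-) and -1.54 in A1(c+), so that both demes were lower. Of these genes 5 met the level limit, and none met both limits. The 17 jasmonate genes had medians of 1.94 and 0.86 and the 12 flavonoid genes 2.26 and 0.37, on the higher side. Cell type markers moved in both directions in T6(c-) with bic after 48 h. The 3 mesophyll markers (RBCS1A, CA1 and LHCB1.3, themselves photosynthetic) summed to 9715 and 7452 CPM in T6(c-) with bic after 48 h and to 38006 and 37960 CPM at pH 5.9, and to 18346 and 15570 CPM in A1(c+) with bic and 32028 and 24691 CPM at pH 5.9. The 5 epidermis markers summed to 3164 and 2872 CPM in T6(c-) with bic and 1504 and 1495 CPM at pH 5.9, the 5 phloem markers to 420 and 475 CPM and 249 and 253 CPM, and the 4 xylem markers to 25.2 and 23.7 CPM and 10.1 and 10.1 CPM. In A1(c+) the epidermis sums were 2387 and 1997 CPM with bic and 2172 and 2546 CPM at pH 5.9, which overlap. The 4 guard cell markers summed to 51.7 and 44.7 CPM in T6(c-) with bic and 33.8 and 32.0 CPM at pH 5.9, and the 2 shoot meristem markers to 4.01 and 16.7 CPM and 21.6 and 21.7 CPM. Of the trichome, root and flower lists 1 gene each was measured. The trichome gene GL2 had 10.4 and 6.37 CPM in T6(c-) with bic and 2.35 and 2.16 CPM at pH 5.9, the root-list gene BGLU23 181 and 507 CPM and 139 and 143 CPM, and the flower gene PI 3.48 and 4.34 CPM and 0.918 and 1.01 CPM, so that each was above pH 5.9 in both bic replicates. In A1(c+) GL2 had 2.72 and 0.851 CPM with bic and 1.73 and 2.65 CPM at pH 5.9, BGLU23 11.4 and 23.0 CPM and 3.22 and 29.7 CPM, and PI 0.961 and 4.09 CPM and 0.224 and 0.0652 CPM. Some of these shifts also stood in T6(c-) at pH 8.3 after 48 h. There the xylem sum was 23.5 and 24.6 CPM, GL2 had 11.5 and 5.19 CPM, and the shoot meristem sum was 17.1 and 3.31 CPM, all like bic. The epidermis (1772 and 2487 CPM), phloem (210 and 328 CPM) and guard cell sums (33.7 and 53.2 CPM) were uneven. Unlike bic were the mesophyll sum (42794 and 29667 CPM), BGLU23 (55.4 and 48.9 CPM) and PI (0.13 and 0.701 CPM). The part of all these markers in the result was not tested. In such bulk samples fewer mesophyll cells and less RNA per cell cannot be told apart. The flower markers AP1, AP3 and AG, the root markers COBL9 and CASP1, and the seed markers were not among the genes analysed here. The mesophyll sum was the highest of these lists in every column, and the flower gene was at 4.34 CPM or below.

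**Figure D5:**
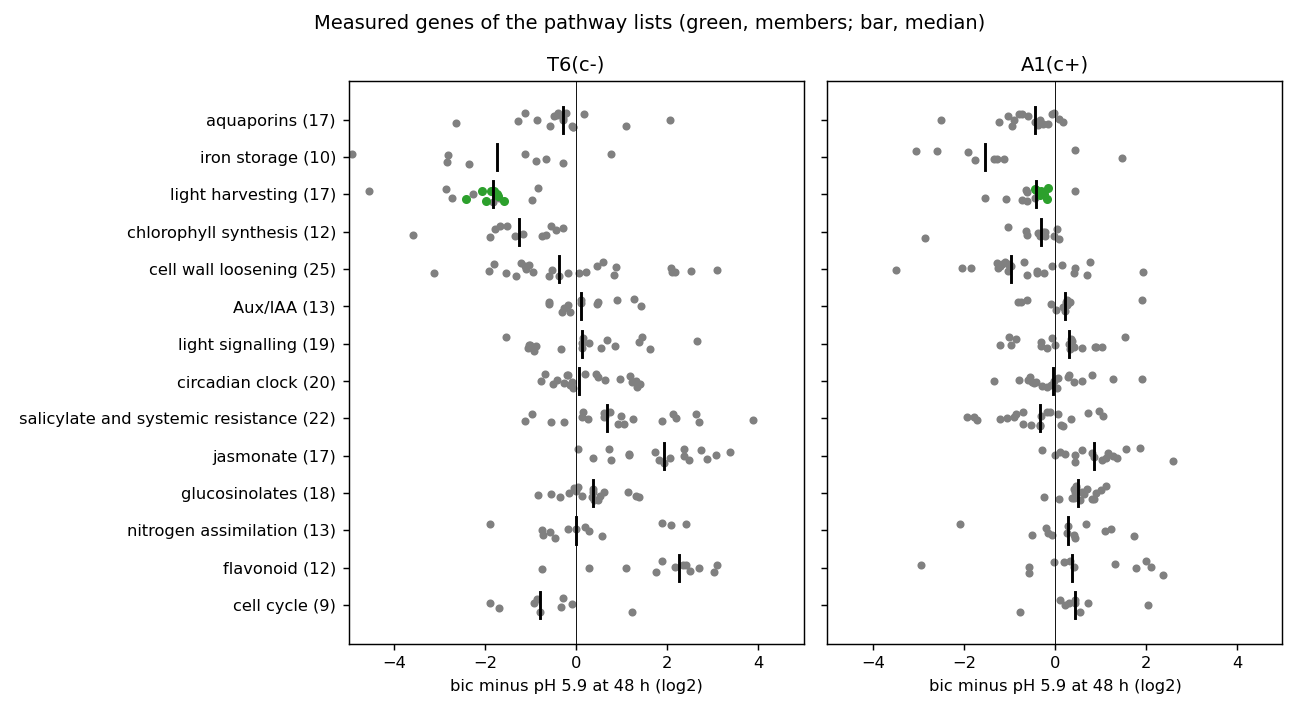
Differences between bic and pH 5.9 after 48 h in log2 CPM for the genes of each pathway list, with a point per gene, for T6(c-) on the left and A1(c+) on the right, with a bar at each median and chosen genes in green (4 points lie outside the axis). The light-harvesting list has all 17 genes below 0 in T6(c-) and 16 of 17 in A1(c+), and jasmonate and flavonoid genes lie above 0 in their medians.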

How the data were processed

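Leaf libraries were unstranded paired-end Illumina libraries. The submitters' processing notes name FastQC, Trim Galore, Salmon, DESeq2, DESeq 1.18.0 and the build TAIR10, while the methods name TopHat, Bowtie and DESeq 1.18.0. Which counter made the table is not given in the sources used here. As deposited by the authors, the values are log2 CPM of 18603 genes in 24 columns, with 0.5 reads added to each count and 1 to the total, and technical replicates summed. This form was read from the values. Values were used as deposited, with no further scaling.

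The members and lists were chosen with earlier results of these data known. Named genes are ranks 1 to 20, genes of a list or of a role, genes called in a tested comparison, and genes around rank 100. Tests used limma 3.58.1 in R 4.3.3 on all 24 columns, with 12 group means, empirical Bayes moderation with a trend and two-sided p, and were tried on simulated data. Gene names and promoters came from RefSeq TAIR10.1, and all 100 genes matched. Python 3.11.15 and pandas 2.3.3 did the rest. Of the 100 genes, 26 overlap another gene of the table. Alternatives were TMM factors, quantile normalization, a pseudocount of 1 CPM, a mean of at least 2 log2 CPM, smaller sets of groups, no trend, no fold change limit, a replicate block and each replicate left out. Leaving out 3 columns, together or from a single mean, was chosen after seeing the data.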

Additional observations from a re-analysis of the deposited data

How the results depend on the processing

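The 100 genes depend on the scaling and on single columns. With TMM factors 60 of them would be chosen again, with quantile normalization 60, and with an A1(c+) limit of 0.25 in place of 0.5, 30. Of the 21 antenna and photosystem genes, 12 would be chosen again with TMM factors, 6 with quantile normalization, 4 with the limit of 0.25 and 11 without T6(c-) bic 48 h replicate 2. Leaving out 1 replicate kept 57 (without T6(c-) bic 48 h replicate 2) to 98. TMM moved the median of all genes in T6(c-) with bic after 48 h by -0.30, against the all-gene median of 0.30.

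Counts of called genes moved as follows, with the share of all genes called in the same fit in parentheses. With TMM factors T6(c-) pH 8.3 48 h against 3 h gave 13 (7.33%). For T6(c-) bic 3 h, quantile normalization (0.0269%), a pseudocount of 1 CPM (0.0108%) and a fit of 1 time point (0.543%) each gave 1, and for A1(c+) bic 3 h the pseudocount (0.086%) and the filter at a mean of 2 (0.0821%) each gave 1. A fit of the compared groups alone gave 8 for T6(c-) bic 3 h (4.1%), 7 for T6(c-) pH 8.3 3 h (4.39%), 17 for T6(c-) against A1(c+) at pH 5.9 3 h (11.7%), and 0 for T6(c-) against A1(c+) at pH 8.3 48 h and for both comparisons of 48 h with 3 h (0% each). A fit of 1 time point gave 7 for A1(c+) bic 3 h (1.27%), 10 for A1(c+) pH 8.3 3 h (4.34%), 11 for T6(c-) against A1(c+) at pH 5.9 3 h (6.92%) and 0 at pH 8.3 48 h (0.742%). With no fold change limit the counts were 13 for T6(c-) against A1(c+) at pH 5.9 3 h (10.1%) and 20 for each comparison of 48 h with 3 h (19% in T6(c-) and 18.6% in A1(c+)). Without the 3 columns numbered with another letter they were 4 for T6(c-) bic 3 h (1.6%), 4 for T6(c-) pH 8.3 3 h (1.7%), 10 for A1(c+) bic 3 h (5.31%), 11 for A1(c+) pH 8.3 3 h (7.43%), 0 for the deme difference (0.108%), 15 and 7 for T6(c-) against A1(c+) at pH 5.9 3 h (10%) and pH 8.3 48 h (4.85%), and 15 in T6(c-) (13.6%) and 19 in A1(c+) (12.6%) for 48 h against 3 h. The cause was not tested.

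With 1 replicate left out in turn, the counts ran from 0 to 3 for A1(c+) bic 3 h, 1 to 9 for A1(c+) pH 8.3 3 h, 0 to 2 for the deme difference, 2 to 8 for T6(c-) against A1(c+) at pH 5.9 3 h and 1 to 5 at pH 8.3 48 h, 4 to 16 in T6(c-) and 7 to 22 in A1(c+) for 48 h against 3 h, and were 0 throughout for T6(c-) bic and pH 8.3 after 3 h. Where a group keeps 1 replicate, it is assumed to vary like the other groups.

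The replicate numbers did not pair the samples in 1 direction (11 of 66 pairs of groups had a correlation of deviations above 0.1, and 16 one below -0.1). The correlations ran from -0.42 to 0.444, and whether some columns share a batch was not tested. With a replicate block the counts were 0 for the first 3 comparisons at 3 h and for the deme difference, 6 for A1(c+) pH 8.3 3 h, 5 for T6(c-) against A1(c+) at pH 5.9 3 h, 1 at pH 8.3 48 h, and 8 and 12 for 48 h against 3 h in T6(c-) and A1(c+).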
